A study of Mus musculus with 10 samples.

Results

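Genes that mark position along the gut were followed in crypts of the mouse colon, the pits of the epithelium at whose base its stem cells divide: Hoxa9, Hoxa10, Hoxa11, Hoxa13, Hoxb13, Hoxd10, Hoxd12, Hoxd13, Cdx1 and Cdx2. They were chosen by name as posterior Hox and Cdx genes, and all 10 of 10 were found by symbol among the 33632 gene identifiers of the count table. All 10 also had enough reads to be tested, among 14963 tested genes. Messenger RNA was sequenced from 5 libraries labelled flox, with both Sox21 alleles flanked by loxP sites (Sox21fl/fl), and from 5 labelled CKO. The CKO libraries had the same alleles plus 1 copy of the Lgr5-EGFP-IRES-CreERT2 knock-in, which makes a tamoxifen-dependent Cre recombinase and a green fluorescent protein from the locus of the stem cell gene Lgr5. Cre from this knock-in acts only in Lgr5-positive cells, is known to be patchy between crypts, and the crypts were sequenced whole. All 10 samples carried the same label for diet and liver, a normal diet with a normal liver. The labels give neither the part of the colon taken, nor the age, sex, strain or tamoxifen dosing of the mice, nor whether any of the samples shared an animal. The p-values therefore measure the spread between these samples only, and a difference in the part of the colon sampled and a difference of genotype cannot be told apart.

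Hox genes encode homeodomain transcription factors and lie in 4 clusters, in which the order of the genes along the chromosome follows the order of their expression along the body axis. Genes at the end of a cluster with the highest paralogue numbers, up to Hoxa13, Hoxb13 and Hoxd13, are used in the hindgut and its derivatives. Cdx1 and Cdx2 are related homeodomain factors that are made throughout the intestinal epithelium and set intestinal against gastric identity. In the adult colon, epithelial Hoxb13 and Hoxd13 are known to be higher toward the rectum, so these genes also report on where along the colon a sample was taken.

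Libraries held between 18926634 and 23642415 counted reads. Mitochondrial genes took 26.5% of counts in flox 1 and 29.3% in flox 4 and between 4.30% and 11.8% in the other 8 libraries (15.4% ± 11.6 in flox and 6.51% ± 3.10 in CKO, SD, n = 5 each, two-sided exact permutation p = 0.167, where the smallest possible p is 0.00794). Levels of a gene in different libraries are given as CPM, counts scaled to the normalised library size. This size was 12640800 in flox 1 and 13235200 in flox 4, and 18234300 to 28904800 in the other libraries. A given count thus yields a higher CPM in flox 1 and flox 4 than elsewhere. For Sox21, the gene to be deleted, mean levels were 4.04 ± 1.80 CPM (flox) and 5.34 ± 1.94 CPM (CKO, SD, n = 5 each). The fitted log2 fold change, CKO over flox, was 0.38 with a standard error (SE) of 0.34 (adjusted p = 0.577 by edgeR). Lgr5 stood at 2.99 ± 1.68 and 4.73 ± 2.16 CPM (0.64 ± 0.41, adjusted p = 0.465). Sox21 thus gave no check of the labels, and the libraries are called flox and CKO only as labelled. All 8 epithelial markers examined, among them Epcam and Cdh1, were present in every library. Their summed levels were 16921 to 26385 CPM in flox and 12387 to 22022 CPM in CKO. The lowest sums were those of CKO 5 (12387 CPM) and CKO 3 (13729 CPM), and CKO 5 was the lowest library for 5 of the 8.

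None of the 10 genes passed the adjusted threshold of 0.05 in edgeR's quasi-likelihood test of CKO against flox, which called 0% of all tested genes. The fitted log2 fold change was above 0 for 8 of the 10, the Hox genes, and below 0 for Cdx1 and Cdx2. Over all tested genes 50.1% were above 0. The median over the 10 genes was 0.39 against 0.0010 over all tested genes. Hoxa9, Hoxa10 and Hoxa13 had an unadjusted p under 0.05 (3 of 10, all higher in CKO), beside 13.0% of all tested genes in either direction and 5.05% in that direction. Without flox 1 and flox 4 it was 8 of 10 above 0 (median 0.41), and without CKO 5 it was 7 of 10 (median 0.27). Over all tested genes these fits put 53.3% and 50.7% above 0. In each fit only Hoxa9 of the 10 had an unadjusted p under 0.05 by edgeR, beside 6.41% and 7.60% of all tested genes. Because the genes were picked with earlier results of these libraries known, these counts are a description. DESeq2, a second count test, called 1 of the 10, Hoxa9, where it called 1.21% of all genes, 0.409% with higher values in CKO.

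**Figure D1:**
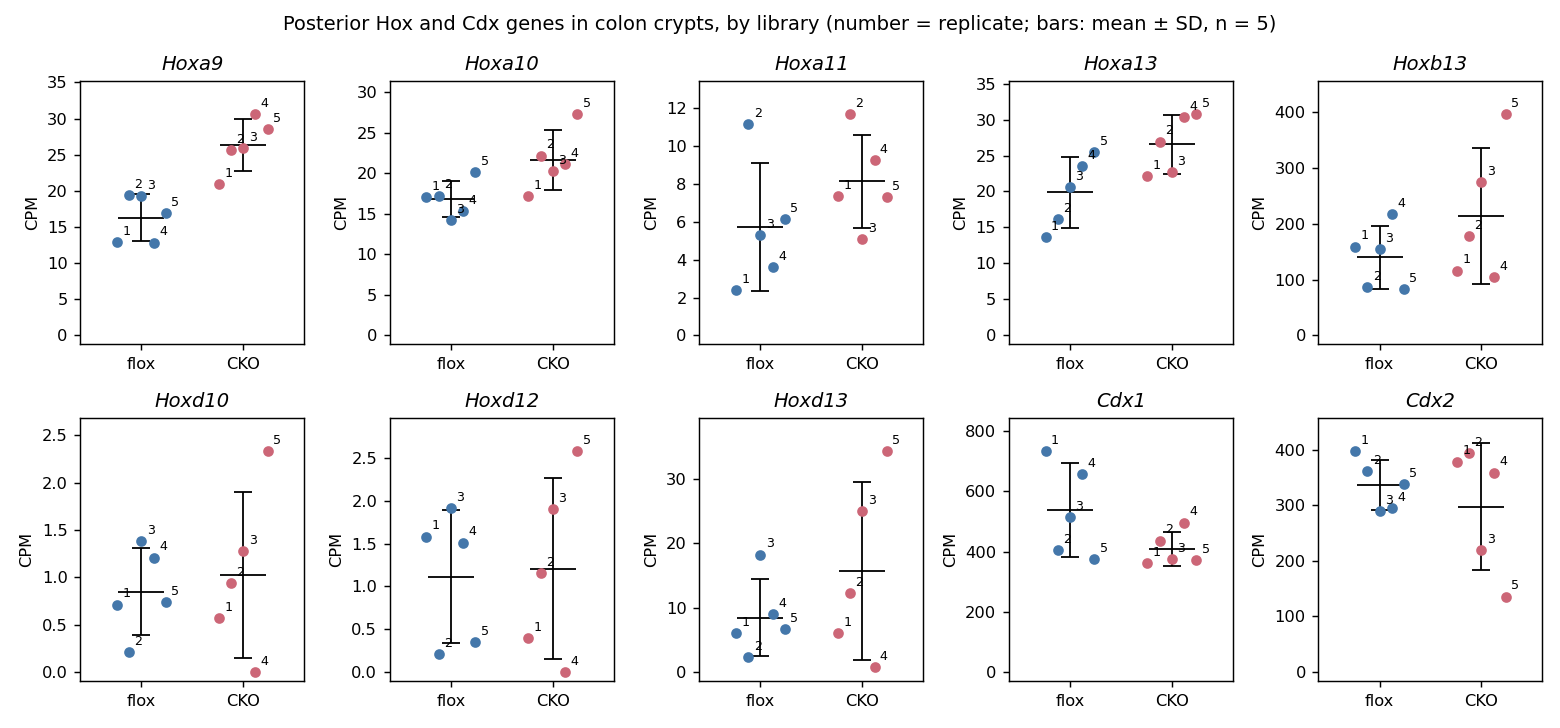
Level of each of the 10 genes in every library, in CPM on a linear axis that differs between panels. Points are single libraries with their replicate number and bars are mean ± SD over 5 libraries. The Hoxa9 groups do not overlap, CKO 5 is the highest library for 6 genes, and CKO 4 is the lowest for Hoxd10, Hoxd12 and Hoxd13.

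Within single libraries the order of the genes was clear only in part when compared per length, by the deposited FPKM values. Cdx1 came first with a mean of 318 FPKM over all 10 libraries and stood above Cdx2 (164 FPKM) in 10 of 10. Cdx2 stood above Hoxb13 (98.6 FPKM) in 8 of 10, the exceptions being CKO 3 and CKO 5. Hoxb13 was above Hoxa10 (15.8 FPKM) in 10 of 10. Hoxa9 and Hoxa13, at 11.9 and 11.7 FPKM, did not differ beyond their spread, with Hoxa9 above in 5 of 10 libraries and Hoxa10 above Hoxa9 in 10 of 10. Hoxa13 was above Hoxd13 (6.21 FPKM) in 8 of 10, and Hoxd13 was above Hoxa11 (3.85 FPKM) in only 5 of 10. Hoxd10 (0.658 FPKM) and Hoxd12 (0.536 FPKM) were last. Among the 8 Hox genes of this set Hoxb13 was thus the most abundant in every library. Outside the set, Hoxa7 had a mean of 40.4 FPKM and stood above Hoxb13 in flox 1 and CKO 4.

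Hoxa9 (ENSMUSG00000038227), a gene of the middle of the Hoxa cluster, was the only one of the 10 whose groups did not overlap. Its levels were 12.9, 19.4, 19.3, 12.8 and 16.9 CPM in flox 1 to 5, and 20.96, 25.6, 25.9, 30.6 and 28.6 CPM in CKO 1 to 5. All CKO libraries stood above all flox libraries, as they did for 0.922% of all tested genes. The group means were 16.3 ± 3.26 and 26.3 ± 3.63 CPM (SD, n = 5 each), which gave a difference of 0.69 ± 0.16 on the log2 scale (SE, 95% interval 0.34 to 1.04, adjusted p = 0.255 by edgeR). DESeq2 gave 0.68 with adjusted p = 0.0116.

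The 2 lowest Hoxa9 libraries, flox 1 and flox 4, were those with the high mitochondrial share. Without them the edgeR value was 0.52 ± 0.15 (adjusted p = 0.613), and DESeq2 no longer called the gene (adjusted p = 0.177). DESeq2 without CKO 5 did not call it either (0.65, adjusted p = 0.0740). The remaining flox libraries, at 16.9 to 19.4 CPM, were still below the lowest CKO library. Per length the picture was less clear, since FPKM of Hoxa9 was 3.16, 13.7, 11.7, 4.36 and 10.9 for flox 1 to 5 and, for CKO 1 to 5, was 13.1, 17.7, 15.3, 11.9 and 17.5, so that flox 2 stood above CKO 1 and CKO 4. The length behind the deposited FPKM values, relative to the gene's mean over all libraries, ran from 0.852 to 1.28 for Hoxa9. That of Hoxb13 had its lowest value at 0.999. In the GENCODE annotation Hoxa9 shares its strand and span with the microRNA gene Mir196b.

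The other Hoxa members pointed the same way with smaller differences. Hoxa10 (ENSMUSG00000000938), the neighbour of Hoxa9, stood at 17.1, 17.3, 14.3, 15.3 and 20.2 CPM in flox 1 to 5 and at 17.2, 22.2, 20.3, 21.2 and 27.3 CPM in CKO 1 to 5. The highest flox library lay above CKO 1 and just under CKO 3, so the groups overlapped (0.36 ± 0.15, adjusted p = 0.374 by edgeR). Hoxa13 (ENSMUSG00000038203), the terminal gene of the cluster, stood at 13.7, 16.2, 20.6, 23.6 and 25.4 CPM in flox 1 to 5 and at 22.1, 26.9, 22.7, 30.4 and 30.7 CPM in CKO 1 to 5. Only CKO 2, CKO 4 and CKO 5 exceeded every flox library (0.42 ± 0.18, adjusted p = 0.381). Hoxa11 (ENSMUSG00000038210) spread widely, at 2.37, 11.2, 5.30, 3.63 and 6.14 CPM in flox 1 to 5 and 7.35, 11.7, 5.09, 9.27 and 7.32 CPM in CKO 1 to 5.

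The low Hoxa11 libraries were again flox 1 and flox 4, and its difference (0.49 ± 0.36, adjusted p = 0.513) came to 0.11 ± 0.30 without them. Without flox 2, its highest flox library, it was 0.88 ± 0.31 (adjusted p = 0.190), so the size of the Hoxa11 difference depended on which flox libraries were kept. Hoxa11 has an antisense partner, Hoxa11os, which gave 915 to 2777 reads per library against 30 to 323 for Hoxa11. Whether the authors' counting used the strand is not given in the sources used here, so reads of these 2 genes may not be told apart. Mean levels of Hoxa11os were 58.2 ± 23.9 CPM (flox) and 71.4 ± 25.4 CPM (CKO), a difference within the spread (0.30 ± 0.31, adjusted p = 0.631). Without flox 1 and flox 4 it was 0.79 ± 0.29 (adjusted p = 0.722), larger where that of Hoxa11 was smaller, and without CKO 5 it was 0.16 ± 0.32. Hottip, a long noncoding RNA made next to Hoxa13 and known to keep the distal Hoxa genes active, had means of 10.5 ± 1.5 CPM (flox) and 14.8 ± 3.09 CPM (CKO). It differed by 0.50 ± 0.17 on the log2 scale (adjusted p = 0.365), and CKO 5 was its highest library with 19.7 CPM.

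Hoxb13 (ENSMUSG00000049604), the terminal gene of the Hoxb cluster and a factor of the distal colon and prostate, varied more between libraries than between groups. It stood at 159, 86.0, 154, 218 and 83.7 CPM in flox 1 to 5 and at 116, 178, 275, 105 and 397 CPM in CKO 1 to 5. CKO 5 and CKO 3 were above every flox library, while CKO 4 and CKO 1 were below 3 of the 5. The means were 140 ± 56.4 and 214 ± 122 CPM (SD, n = 5 each), for a log2 fold change of 0.61 ± 0.39 (95% interval -0.23 to 1.46, adjusted p = 0.463 by edgeR). It was 0.27 ± 0.35 without CKO 5 and 1.0 ± 0.47 without flox 1 and flox 4, so these libraries moved it by more than 1.5 times in either direction.

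The Hoxd members, Hoxd10 (ENSMUSG00000050368), Hoxd12 (ENSMUSG00000001823) and Hoxd13 (ENSMUSG00000001819), shared their highest library, CKO 5, and their lowest, CKO 4. The stretches of 250 bases before their RefSeq start sites on chromosome 2 (GRCm38.p6, plus strand, 5′ to 3′) are shown because these neighbours varied side by side. Capitals mark the letters CCAAT and TATAAA or their reverse complements ATTGG and TTTATA.
Hoxd13: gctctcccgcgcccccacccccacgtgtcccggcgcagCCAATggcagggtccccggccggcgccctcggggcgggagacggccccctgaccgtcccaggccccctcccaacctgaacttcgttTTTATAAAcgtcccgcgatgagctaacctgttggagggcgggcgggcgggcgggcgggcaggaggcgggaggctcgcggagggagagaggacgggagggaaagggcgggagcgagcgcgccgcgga
Hoxd12: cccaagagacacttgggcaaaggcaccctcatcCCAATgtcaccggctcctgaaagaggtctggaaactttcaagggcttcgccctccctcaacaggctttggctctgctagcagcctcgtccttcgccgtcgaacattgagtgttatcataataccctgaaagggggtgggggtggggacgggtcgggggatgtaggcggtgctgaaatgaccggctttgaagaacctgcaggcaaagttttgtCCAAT
Hoxd10: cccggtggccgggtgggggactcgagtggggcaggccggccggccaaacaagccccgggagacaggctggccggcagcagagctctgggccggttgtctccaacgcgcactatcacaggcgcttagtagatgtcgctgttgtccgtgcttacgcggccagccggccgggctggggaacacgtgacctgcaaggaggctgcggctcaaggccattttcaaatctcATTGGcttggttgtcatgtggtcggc
These windows lie at chr2:74667975-74668224 for Hoxd13, chr2:74674763-74675012 for Hoxd12 and chr2:74691641-74691890 for Hoxd10. CCAAT on either strand was in all 3 and in 33.8% of 32851 RefSeq windows of this length. TATAAA, which in Hoxd13 overlaps its own match on the other strand, was in 12.4% of windows. The letters TTTATNG, common to Cdx and posterior Hox binding sites, were searched on both strands and had no match in these 3 windows, against 9.8% of all windows. CTCGTAAA, a form bound by Hoxb13, likewise had no match, against 0.1% of all windows. GC content was 74.4% for Hoxd13, 55.6% for Hoxd12 and 65.6% for Hoxd10.

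Hoxd13, which patterns the hindgut end and the digits, was the most variable of the 8 genes with reads in every library, with its highest library 48.2 times its lowest. It stood at 6.09, 2.31, 18.2, 8.99 and 6.66 CPM in flox 1 to 5 and at 6.04, 12.3, 25.0, 0.713 and 34.4 CPM in CKO 1 to 5. CKO 5 and CKO 3 were above all flox libraries and CKO 4 below all of them, so that the CKO group held both ends of the range (0.90 ± 0.75, 95% interval -0.74 to 2.53, adjusted p = 0.557 by edgeR). Without CKO 5 the value was 0.39 ± 0.76. Without flox 3, the highest flox library, it was 1.42.

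Hoxd10 and Hoxd12 were near the limit of detection. Hoxd10 had 9, 6, 31, 16 and 17 reads in flox 1 to 5 and 13, 26, 37, 0 and 66 reads in CKO 1 to 5. Hoxd12 had 20, 6, 43, 20 and 8 reads in flox 1 to 5, then 9, 32, 55, 0 and 73 reads in CKO 1 to 5. The 0 of CKO 4 allows a level of up to 0.165 CPM (3 reads), for counting error only, and the next lowest library, flox 2, was at 0.213 CPM for both genes. Group means were 0.850 ± 0.461 and 1.03 ± 0.873 CPM for Hoxd10 (0.31 ± 0.73, adjusted p = 0.840) and 1.11 ± 0.778 and 1.21 ± 1.06 CPM for Hoxd12 (0.18 ± 0.83, adjusted p = 0.928). Both differences were below 0 without CKO 5, at -0.23 and -0.29. Hoxd10 overlaps the predicted gene Gm28309 on the same strand, and their reads may be shared.

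The 250 bases before the start of Hoxa9, the gene with separate groups, are given for comparison (chr6:52227371-52227620, minus strand, GRCm38.p6, RefSeq).
Hoxa9: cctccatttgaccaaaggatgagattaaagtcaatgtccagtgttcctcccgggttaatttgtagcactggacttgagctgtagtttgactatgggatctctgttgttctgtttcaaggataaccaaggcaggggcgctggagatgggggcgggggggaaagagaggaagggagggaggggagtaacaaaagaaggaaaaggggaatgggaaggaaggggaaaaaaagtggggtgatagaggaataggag
At a GC content of 49.6% this window held none of the letters searched, which says only that they are not in it.

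Cdx1 (ENSMUSG00000024619), made most strongly in the crypt base and proliferative cells, was lower in CKO on the CPM scale. It stood at 734, 406, 514, 657 and 374 CPM in flox 1 to 5 and at 362, 436, 375, 496 and 372 CPM in CKO 1 to 5. The high libraries on this scale were flox 1 and flox 4, the same that carried the high mitochondrial share, and flox 2 and flox 5 lay within the CKO range. By FPKM flox 1 and flox 4 were not high, at 294 and 274 against 276 to 366.5 in the other libraries. The means were 537 ± 156 and 408 ± 56.8 CPM (SD, n = 5 each) for a log2 fold change of -0.40 ± 0.20 (95% interval -0.84 to 0.05, adjusted p = 0.406 by edgeR). Without flox 1 and flox 4 it was -0.070 ± 0.17.

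Cdx2 (ENSMUSG00000029646), the master factor of intestinal identity, stood at 398, 361, 289, 295 and 339 CPM in flox 1 to 5 and at 379, 394, 220, 359 and 136 CPM in CKO 1 to 5. CKO 1, CKO 2 and CKO 4 lay within the flox range and CKO 3 and CKO 5 below it. The means were 337 ± 45.6 and 298 ± 114 CPM (-0.18 ± 0.26, 95% interval -0.75 to 0.40, adjusted p = 0.736), and the difference was 0.0080 without CKO 5. On log2(FPKM + 1), where the median of all tested genes itself moved from 0.0010 to 0.30, Cdx1 was at 0.082 and Cdx2 at 0.16, so both changed sign between scales and lay below that median on either.

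**Figure D2:**
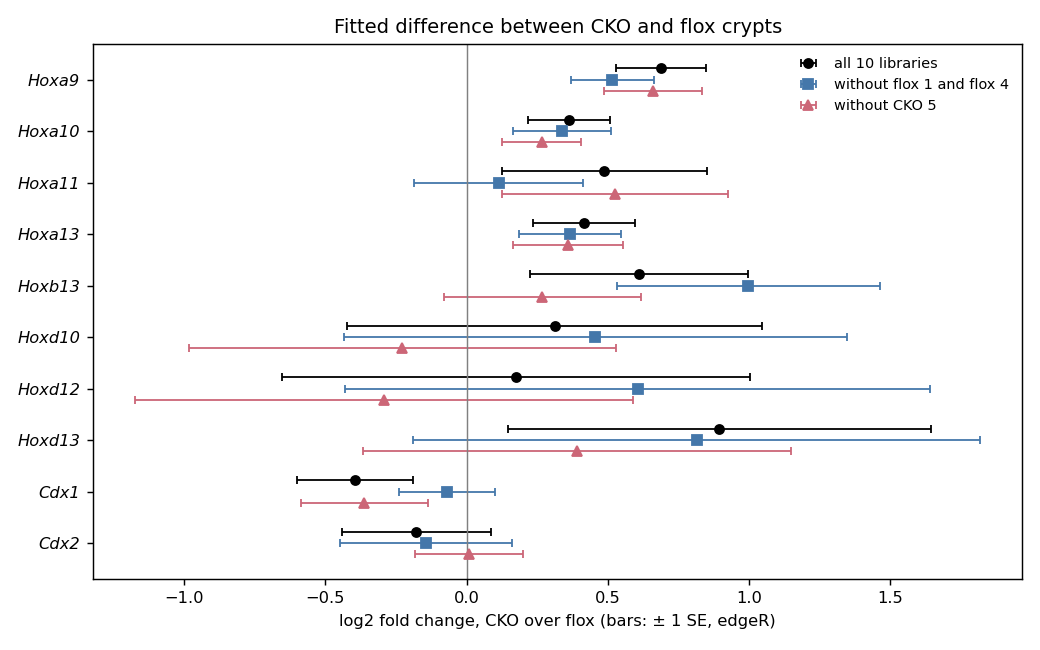
Log2 fold change of CKO over flox for each gene with 1 standard error to either side (edgeR), for all 10 libraries, without flox 1 and flox 4, and without CKO 5. Hoxa9, Hoxa10 and Hoxa13 lie to the right of 0 with their bars in all 3 fits. Hoxa11, Hoxb13 and Hoxd13 keep values to the right of 0, with a bar that reaches 0 in at least 1 fit. The values of Hoxd10, Hoxd12 and Cdx2 change sign when CKO 5 is left out.

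CKO 5, the library at the end of the range for Hoxb13, Hoxd13 and Cdx2, also differed from the other libraries along the rest of the Hoxb and Hoxd clusters. Of 39 Hox genes, 36 had a count row and 26 were tested, 13 of them higher and 13 lower in CKO. CKO 5 was the lowest of all 10 libraries for 8 of 8 tested genes from Hoxb2 to Hoxb9 and for Hoxd4 and Hoxd8, and the highest for Hoxb13 and for 4 of 4 tested genes from Hoxd10 to Hoxd13. Over all tested genes CKO 5 was lowest for 14.4% and highest for 13.5%. In the Hoxa cluster it was lowest for 0 of 11 tested genes. Hoxb6, for example, stood at 0.955 CPM in CKO 5 and at 19.3 to 36.0 CPM in the other CKO libraries, and Hoxb5 had 6 reads there.

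Ratios within a library, on FPKM, put both ends of a cluster side by side. Hoxb13 over Hoxb6 was 231 in CKO 5, 8.66 in CKO 3 and 1.77 to 4.51 in the other 8 libraries. Hoxd13 over Hoxd4 was 200.5 in CKO 5, 5.03 in CKO 3, 0.153 in CKO 4 and 0.263 to 3.41 in the other 7. Hoxa13 over Hoxa3 spanned only 1.29 to 3.29, with CKO 5 at 2.0. CKO 5 thus stood apart in the Hoxb and Hoxd clusters and not in the Hoxa cluster. CKO 4 stood apart in a different way, lowest for the 4 tested genes from Hoxd10 to Hoxd13 (6.35% of all tested genes had their lowest value there) and for no other tested Hox gene.

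**Figure D3:**
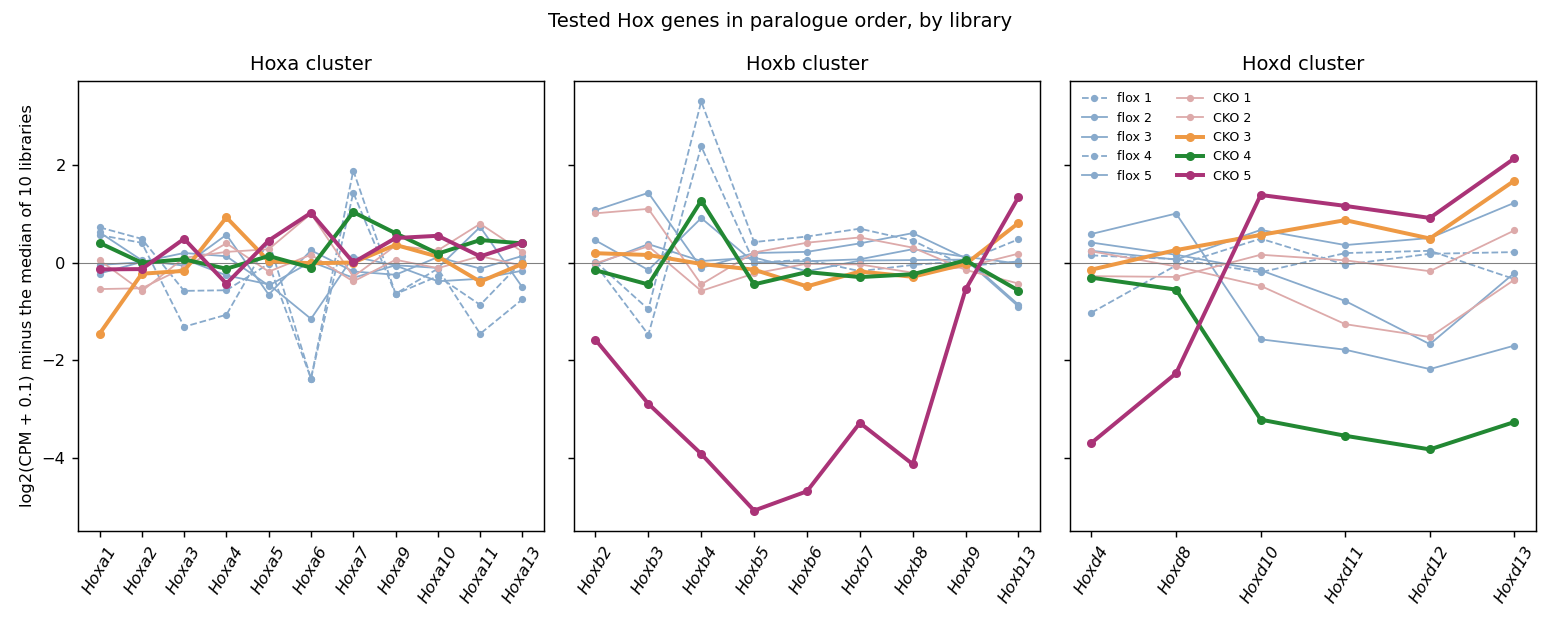
The tested genes of the Hoxa, Hoxb and Hoxd clusters in paralogue order, as log2(CPM + 0.1) minus the median of the 10 libraries for that gene, with 1 line per library (dashed for flox 1 and flox 4). CKO 5 lies under the other libraries from Hoxb2 to Hoxb9 and at Hoxd4 and Hoxd8 and on top at Hoxb13 and from Hoxd10 to Hoxd13, while CKO 4 is the lowest from Hoxd10 to Hoxd13.

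The Hox genes outside the 10 gave no call. Of 23 genes of paralogue groups 1 to 8, 16 were tested, 4 higher and 12 lower in CKO with a median of -0.50, and 0 of 16 passed. Without CKO 5, the lowest library for 9 of these 16, the median was -0.24. Hoxa2 (-0.49 ± 0.19, adjusted p = 0.372 by edgeR) had all CKO libraries below all flox libraries, beside 1.26% of tested genes, and was at -0.30 ± 0.21 without flox 1 and flox 4. Hoxb4 was at -1.98 ± 0.83 (adjusted p = 0.376), with 89.0 and 46.9 CPM in flox 1 and flox 4 and 8.27 to 16.9 CPM in the other flox libraries. Its value without these was -0.40. Hoxa6 was at 1.37 ± 0.68 (adjusted p = 0.400) on 0 to 27 reads per library, and at 0.83 ± 0.53 without flox 1 and flox 4. The tested posterior genes outside the 10 were Hoxb9 (-0.19 ± 0.12) and Hoxd11 (0.45 ± 0.73), at -0.099 and 0.024 without CKO 5. No gene of the Hoxc cluster had enough reads to be tested, and its 6 genes with a count row had at most 4 reads in a library.

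Other genes with a known position along the gut also often had CKO 5 at an end of their range. This was not limited to such genes, since CKO 5 was the lowest library for 5 of 8 epithelial markers. It was also lowest for 7 of 8 tested T and NK cell genes. Of 8 genes listed as distal colon markers, 6 were tested, 4 higher and 2 lower in CKO with a median of 0.44 (0.69 without flox 1 and flox 4), and 0 passed. CKO 5 was the highest library for 2 of the 6 and the lowest for 1. Hsd11b2, the enzyme that shields the mineralocorticoid receptor from glucocorticoids, stood at 131, 210, 160, 114 and 187 CPM in flox 1 to 5 and at 228, 240, 344, 247 and 327 CPM in CKO 1 to 5. All CKO libraries were above all flox libraries (0.79 ± 0.19, adjusted p = 0.283 by edgeR, 0.0158 by DESeq2). Without flox 1 and flox 4, its 2 lowest libraries, the difference was 0.59 ± 0.18 (adjusted p = 0.648 by edgeR). Insl5, a hormone of distal enteroendocrine cells, stood at 15.4 to 27.8 CPM in flox and at 23.2, 27.0, 40.9, 34.9 and 77.6 CPM in CKO 1 to 5 (0.88 ± 0.31, adjusted p = 0.365), and the difference was 0.51 ± 0.22 without CKO 5. The sodium channel subunit Scnn1b went the other way (-0.85 ± 0.32, adjusted p = 0.372), with CKO 5 the lowest library at 1.31 CPM.

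The summed level of the distal list was 446 to 571 CPM in flox and 600 to 904 CPM in CKO, highest in CKO 5 and next in CKO 3 (815 CPM), the libraries with the most Hoxb13 and Hoxd13. Of 7 proximal colon and caecum markers, all tested, 3 were higher and 4 lower in CKO with a median of -0.15 and 0 passed. CKO 5 was the lowest library for 5 of 7. Without it 4 were higher and 3 lower, with a median of 0.10. Their summed level was 2577 to 4506 CPM in flox, 1554 in CKO 5, 1809 in CKO 3 and 2812 to 3691 CPM in the other CKO libraries. Nr1h4, the bile acid receptor FXR, was at -0.51 ± 0.20 (adjusted p = 0.372), Ang4, a secreted antimicrobial ribonuclease, at -1.09 ± 0.46 (adjusted p = 0.377), and the bile acid transporter Slc10a2 at -0.66 ± 0.51 (adjusted p = 0.524). Slc10a2 stood at 0.955 CPM in CKO 5 and at 6.44 to 15.9 CPM in the other 9 libraries, and its difference was -0.37 ± 0.32 without CKO 5. The lists hold few genes, some of them in more than 1 list, and were written with earlier results known, so their counts carry no test.

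**Figure D4:**
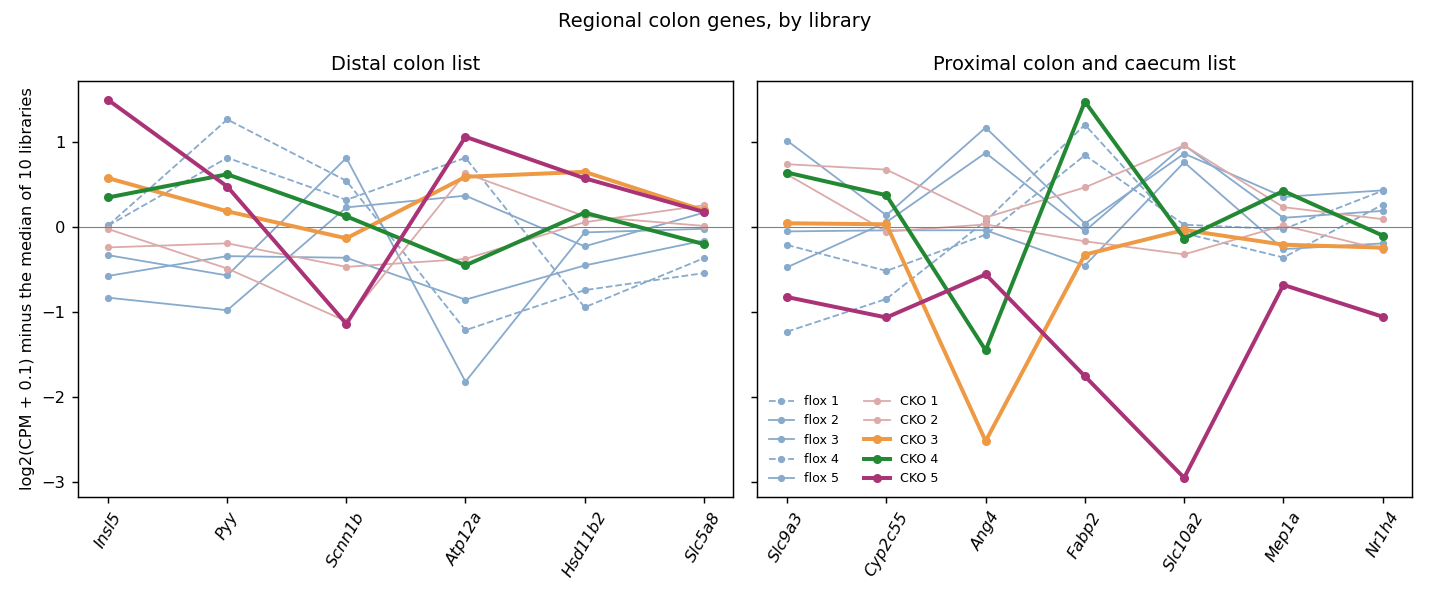
Tested genes of the distal and proximal lists, as log2(CPM + 0.1) minus the median of the 10 libraries for that gene, with 1 line per library (dashed for flox 1 and flox 4). CKO 5 lies above the median for Insl5, Pyy, Atp12a, Hsd11b2 and Slc5a8, and below it for Scnn1b and for all 7 proximal genes.

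Genes that act with or under the Hox and Cdx factors were not called by edgeR either. Of 12 Cdx targets 10 were tested, 5 higher and 5 lower with a median of -0.0083, and CKO 5 was the lowest library for 8 of 10. The split depended on the libraries, with 8 of 11 tested targets higher without CKO 5 (median 0.15) and 1 of 11 higher without flox 1 and flox 4 (median -0.076). Muc2, the gel-forming mucin of goblet cells, had means of 14237 ± 3135 CPM (flox) and 8591 ± 2060 CPM (CKO) with no overlap (-0.73 ± 0.28, adjusted p = 0.372 by edgeR, 0.0434 by DESeq2). Car1, a carbonic anhydrase of colonocytes, stood at 481 CPM in CKO 5 and at 2814 to 6872 CPM in the other 9 libraries (-0.45 ± 0.50, adjusted p = 0.653, and -0.16 ± 0.29 without CKO 5). Heph, a copper-dependent ferroxidase, was at 0.24 ± 0.24 (adjusted p = 0.616, and -0.022 ± 0.20 without flox 1 and flox 4).

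Among other regional transcription factors 15 of 18 were tested, 10 higher and 5 lower with a median of 0.14, and 0 passed. The smallest p-values were those of Foxa3 (-0.57 ± 0.19, adjusted p = 0.365), Foxa2 (0.54 ± 0.23, adjusted p = 0.379) and Gata6 (0.27 ± 0.14, adjusted p = 0.406). Without flox 1 and flox 4, Foxa3 was at -0.31 ± 0.14 and Gata6 at 0.15 ± 0.14. Of 12 small intestine markers 5 were tested, 4 higher and 1 lower. Apob, which builds chylomicrons, had all CKO libraries above all flox libraries (0.88 ± 0.30, adjusted p = 0.365, and 0.57 ± 0.27 without flox 1 and flox 4).

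Of the TALE homeodomain cofactors that bind DNA beside Hox proteins, 7 of 11 listed genes were tested, 3 higher and 4 lower. Meis3 stood at 10.7, 7.35, 8.51, 9.29 and 6.83 CPM in flox 1 to 5 and at 3.85, 5.07, 5.50, 5.70 and 4.46 CPM in CKO 1 to 5, without overlap. The difference was -0.79 ± 0.18 (adjusted p = 0.231 by edgeR), and DESeq2 called it (adjusted p = 0.00629). Without flox 1 and flox 4, its 2 highest libraries, it was -0.61 ± 0.19 (adjusted p = 0.648 by edgeR). Pbx3, a partner of Hox proteins on DNA, came next by p (0.22 ± 0.18, adjusted p = 0.552 by edgeR). All 22 Polycomb and trithorax genes, which hold Hox clusters silent or active, were tested, with 15 higher, 7 lower and a median of 0.12. Cbx2 (0.47 ± 0.18, adjusted p = 0.372), Bmi1 (0.38 ± 0.17, adjusted p = 0.383) and Kmt2d (0.44 ± 0.22, adjusted p = 0.404) had the smallest p-values. Without flox 1 and flox 4 the median was 0.039, with Kmt2d at 0.18 ± 0.18, Bmi1 at 0.24 ± 0.17 and Pbx3 of the cofactors at 0.11 ± 0.20. Of 9 noncoding RNAs of the Hox clusters 6 were tested, 3 higher and 3 lower, and after Hottip the smallest p-values were those of Hoxb3os (-0.77 ± 0.66, adjusted p = 0.568, and -0.17 ± 0.67 without flox 1 and flox 4) and Hoxa11os.

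Markers of other cell types also differed between these libraries. Of 17 fibroblast and smooth muscle genes 12 were tested and 12 of 12 were higher in CKO, with a median of 0.83. Their summed level was 36.3 to 108 CPM in flox. CKO 1 and CKO 2 lay within that range at 79.2 and 88.3 CPM, and CKO 3, CKO 4 and CKO 5 above it at 182, 184 and 268 CPM. Without CKO 5, 11 of 13 tested were higher, with a median of 0.64. The defining muscle genes Acta2 and Myh11 were below the filter, at 0.497 and 0.10 CPM on average in flox and 0.354 and 0.0914 CPM in CKO. In bulk samples fewer cells of a type and less RNA per cell cannot be told apart.

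T and NK cell genes (8 of 9 tested, 1 higher and 7 lower) summed to 16.5 to 37.1 CPM in flox and 8.49 to 34.1 CPM in CKO, lowest in CKO 5. B and plasma cell genes (6 of 8 tested, 6 lower) summed to 5.86 to 16.8 and 5.02 to 7.68 CPM. Endothelial genes (5 of 8 tested, 2 higher and 3 lower) summed to 20.9 to 68.7 and 8.65 to 18.4 CPM, without overlap. Of these, Vwf, a clotting factor carrier (-0.86 ± 0.16, adjusted p = 0.174 by edgeR, 0.000324 by DESeq2), and Ly6c1 (-2.45 ± 0.57, adjusted p = 0.257 by edgeR, 0.00189 by DESeq2) had all CKO libraries below all flox libraries. Myeloid genes (8 of 9 tested, 4 higher and 4 lower) summed to 15.6 to 43.9 and 19.5 to 50.6 CPM, highest in CKO 5. Enteric neuron and glia genes (3 of 10 tested, 1 higher and 2 lower) summed to 3.03 to 5.04 and 2.41 to 4.55 CPM. The part of these cells in the Hox and Cdx values was not tested.

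The genes whose levels over the 10 libraries ran most like Hoxb13 and Cdx2 were sought among 11625 genes with at least 1 CPM on average, by Pearson correlation of log2 CPM. For Hoxb13 they were Adh1, an alcohol dehydrogenase (r = 0.98), the membrane protease gene Tmprss13 (0.97), Rims4 (0.95), the folate transporter Slc46a1 (0.94) and the elastase Cela1 (0.93), and without CKO 5, over 9 libraries, these values were 0.89 to 0.97. For Cdx2 they were Arpc1b, a subunit of the actin nucleating complex (r = 0.97), AA986860 (0.96), Ndrg1 (0.95), Prex1 (0.94) and Phf11b (0.94), with 0.77 to 0.91 without CKO 5. The points share library and depth, the genes are the top of a search, and the values are a description. Adh1 itself differed between groups by 0.70 ± 0.40 (adjusted p = 0.437) and Arpc1b by -0.011 ± 0.12 (adjusted p = 0.970), so neither passed the group test.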

How the data were processed

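Messenger RNA of 10 colon crypt samples (5 flox, 5 CKO, grouped by sample title) was sequenced with a TruSeq kit, per the labels' protocols. The submitters' processing notes name fastp and HISAT2. A genome build, annotation, counting tool or strand setting was not given in the sources used here. Counts as deposited are in a table that holds whole-number counts per Ensembl gene ID, not normalised, for 33632 IDs. The deposited FPKM table holds the authors' values per gene length and library total. Of the IDs, 26095 matched a symbol of GENCODE M21 (GRCm38), used here for names and overlaps only. Promoter windows are from RefSeq (GRCm38.p6), with entries for 8 of the 10 genes.

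Counts were filtered with filterByExpr (14963 genes left), scaled by TMM and compared with edgeR 4.0.16 in R 4.3.3 (robust glmQLFit, glmQLFTest, group as the only term). P-values were adjusted by Benjamini-Hochberg over all tested genes, with a threshold of 0.05. CPM use the normalised library size, and log2 CPM for gene patterns used a prior count of 2. DESeq2 1.42.0, limma 3.58.1 (voom, or on log2 of FPKM plus 1 or 0.1), other scalings, filters and left-out libraries were alternatives. The scripts were tested on simulated data.

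The 10 genes and the lists (209 entries, 200 with a count row) were chosen with earlier results of these data known. Named were all 10 genes, Sox21, Lgr5, list members past the threshold (for a list with none, the 3 of smallest p) and the 5 genes most like Hoxb13 and Cdx2. Hoxb5, Hoxb6, Hoxa3, Hoxd4, Hoxd8, Atp12a and others used to describe single libraries were named after their values were seen. A named member of the cofactor list is not reported here, though the counts over that list include it.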

Additional observations from a re-analysis of the deposited data

Results flagged for a closer look

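In 140 groups of 5 libraries (each tested gene of the Hox, Hox noncoding, Cdx target and regional lists, in each group), the gap of the highest or lowest library to the nearest other was compared with the range on log2 CPM. It was past the 95% limit for 5 values in 10 groups, where 1 in 20 of independent groups would give 7 of 140. The groups share libraries and neighbouring genes, so the number cannot be weighed against chance. Of these 10, 7 were low values in CKO 5.

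In CKO 5, Hoxb5 stood at 0.212 CPM (other CKO libraries 7.68 to 12.1), Hoxb6 at 0.955 CPM (19.3 to 36.0), Hoxb7 at 0.672 CPM (6.03 to 10.7) and Hoxb8 at 0.814 CPM (13.0 to 19.7). Hoxd4 stood at 0.177 CPM there (2.80 to 4.11). The foregut and midgut factor Gata4 stood at 0.142 CPM in CKO 5 (1.21 to 2.06) and the intestinal homeobox factor Isx at 3.22 CPM (30.1 to 44.9). None of the 10 posterior Hox and Cdx genes themselves met this rule.

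Outside CKO 5, Hoxa7 was high in CKO 4 at 95.6 CPM (other CKO libraries 35.6 to 46.7). Hoxd4 was low in flox 4 at 1.66 CPM (other flox libraries 3.88 to 5.29). Hoxd8 was high in flox 2 at 3.27 CPM (1.51 to 1.77).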

How the results depend on the processing

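Over 27 alternatives, 249 of 268 values of the 10 genes kept their direction and side of the threshold, 18 changed direction and 1, Hoxa9 by DESeq2 (0.68, adjusted p = 0.0116), passed the threshold. Genes called over all genes numbered 0 in the main test (1939 at an unadjusted p under 0.05), 178 by DESeq2 (60 higher, 118 lower), 44 by voom with quality weights, 3 with no filter on low counts, 1 with the mitochondrial share as a covariate, and 0 to 2 when single libraries were left out (2 without flox 2). In settings chosen after seeing the data it was 1 without flox 1, flox 4 and CKO 5, and by DESeq2 69 without flox 1 and flox 4 and 92 without CKO 5. Of the 10 genes DESeq2 called 1, Hoxa9, and every other setting called 0, with each library left out in turn included (0 to 0). Hoxd10 turned to -0.12 by voom, -0.28 with quality weights, -0.23 without CKO 5, -0.28 by DESeq2 without CKO 5 and -0.084 without flox 1, flox 4 and CKO 5, against at most 0.61 with one library left out (CKO 4). Hoxd12 turned to -0.077 by voom, -0.31 with quality weights, -0.11 without flox 2, -0.06 without flox 5, -0.04 without CKO 3, -0.29 without CKO 5 and -0.37 by DESeq2 without CKO 5, against at most 0.52 with one library left out (flox 3). Cdx1 turned to 0.082 on log2(FPKM + 1) and 0.083 on log2(FPKM + 0.1). Cdx2 turned to 0.16 on both, to 0.0080 without CKO 5 and to 0.041 without flox 1, flox 4 and CKO 5. The cause of these turns was not tested. Hoxd10 and Hoxd12 left the test under a filter of 1 CPM in 5 libraries. Same-numbered libraries had deviation correlations of -0.30, 0.28, 0.09, 0.40 and -0.06. Only flox 2 and flox 4 had the CKO library of the same number as their best match, so these values do not decide whether samples were paired. The fit with the replicate number as a block called 0 genes (1986 at an unadjusted p under 0.05) and 0 of the 10.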
